A study of Bos taurus with 8 samples.

Results

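Glutathione S-transferases (GSTs) are the enzymes that join the tripeptide glutathione to electrophilic compounds, which are made in the body or taken in with food, so that these can be carried out of the cell. The soluble enzymes are grouped into classes named by Greek letters, a separate kappa enzyme works in mitochondria and peroxisomes, and a further family sits in membranes. The liver is rich in GSTs, and the classes overlap in what they conjugate while differing in their best substrates. The present comparison covers 10 GST genes in the liver of Japanese Black fetal calves: GSTA1, GSTA2 and GSTA4 of the alpha class, GSTM1 and GSTM3 of the mu class, GSTP1 (pi), GSTO1 (omega), GSTZ1 (zeta), GSTK1 (kappa) and the membrane enzyme MGST1. They were chosen by name, and their probes were found through the RefSeq accession that each array probe carries. All 10 had a matched probe, out of 12603 genes on the array with one, and all 10 were detected, out of 10860 genes detected. A gene counted as detected if 4 or more of the 8 arrays marked a probe of it as well above background.

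The dams' diet covered 60% of the recommended nutrients in the low nutrition group (LN) and 120% in the high nutrition group (HN), from before pregnancy on, and fetal liver was taken at 8.5 months, near day 260. Per the study's methods, the dams were inseminated with male-sorted semen of a single sire. No group on a standard diet was included, so LN and HN are compared only with each other. Each array is labelled as the liver of 1 fetus, with fetuses L5, L6, L8 and L9 in LN and L1, L2, L3 and L10 in HN, and values are listed in that order throughout. For the arrays the study chose the fetuses of lowest body weight in LN and of highest body weight in HN, so diet and this choice cannot be told apart. GEO's design text speaks of RNA pooled by group, whereas the labels and the files give 4 separate arrays per group.

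The 4 LN arrays were on 1 slide and in 1 scan, and the 4 HN arrays on another slide in another scan, so slide, scan and diet cannot be told apart in any value here. The arrays had between 32635 and 34369 of 43803 spots well above background, 0 saturated spots, and log2 signals that correlated at 0.977 or more between any pair of arrays. Of 10 hepatocyte markers 9 were detected, at a mean log2 signal of 17.40 to 17.55 in LN and 17.36 to 17.50 in HN, so defining markers of the labelled tissue were present. Granulocyte markers were higher in LN for 7 of 8 genes, with a summed log2 signal of 12.97 to 14.61 in LN and 11.74 to 13.07 in HN. Erythroid markers had 4 of 8 detected, and their summed log2 signal was 8.13 to 12.62 in LN, with L5 highest, and 7.52 to 9.08 in HN. In liver pieces that hold several cell types, fewer cells of a type and less RNA per cell cannot be told apart.

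Among the 10 genes, GSTA4 was 1.45-fold lower in LN, GSTM1 was lower in LN at all 5 of its probes by differing amounts, and the remaining 8 genes had differences from -0.23 to 0.44 on the log2 scale that lay within the spread between fetuses. The median log2 difference, LN minus HN, was 0.02 over the 10 genes and 0.01 over all 10860 detected genes, with 5 genes higher and 5 lower in LN. For 6 of the 10 the standard error was larger than the difference itself. With limma, 0 of 33439 detected probes reached an adjusted p of 0.05 (the lowest was 0.634), while 2113 had an unadjusted p of at most 0.05. With trend and robust settings limma also called 0 probes. For the 10 genes the adjusted limma p ranged from 0.760 to 0.993.

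At an unadjusted limma p of at most 0.05, 1 of the 10 genes (GSTA4) was lower in LN, beside 2.75% of all detected genes. At the same threshold 0 of the 10 were higher in LN, beside 3.30% of all detected genes. Every LN fetus lay below every HN fetus for 0 of the 10 genes (1.56% of all detected genes) and above every HN fetus for 0 of the 10 (2.59% of all detected genes). A count of 1 in 10 rests on a single gene, and which gene depended on the probes: with the mean over the detected probes of a gene the count was again 1, but GSTA4 lost the call, with an unadjusted limma p of 0.0540, and GSTM1 gained it, with 0.0351.

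**Figure D1:**
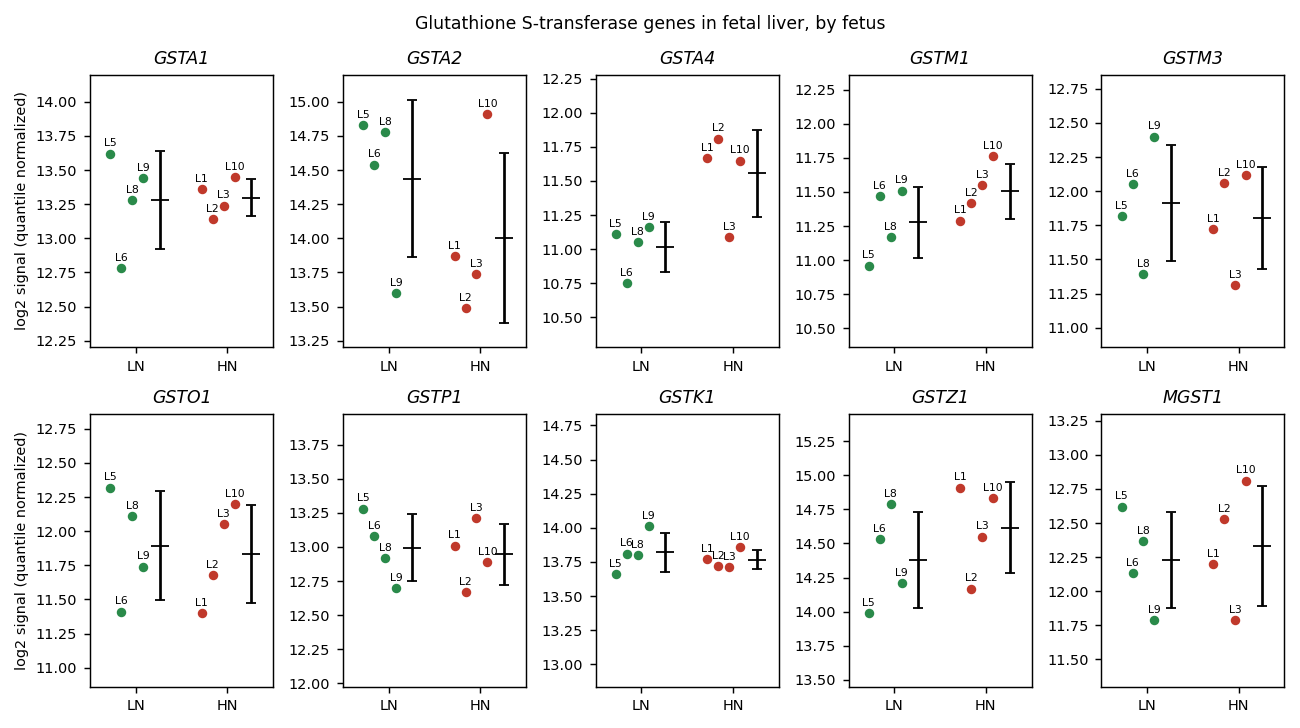
Log2 quantile-normalized signal of the brightest detected probe of each of the 10 genes, for the 4 LN fetuses (green) and 4 HN fetuses (red), with the group mean and SD in black. Each vertical axis spans the same log2 range, and the position of a gene on its axis is not comparable with that of another gene. The 2 groups overlap in all 10 panels, with GSTA4 the panel where HN fetus L3 alone joins the LN fetuses.

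The alpha class enzymes conjugate a wide set of substrates, and GSTA1 and GSTA2 are the forms classically abundant in hepatocytes. GSTA1 had log2 signals of 13.62, 12.78, 13.28 and 13.44 in LN and 13.36, 13.14, 13.24 and 13.45 in HN. The HN values lay inside the LN range, which ran from L6, the lowest of the 8 fetuses, to L5, the highest. The difference was -0.01 ± 0.19 (SE, n = 4 against 4, unadjusted limma p = 0.945, exact permutation p = 0.971), and its 95% interval reached from -0.43 to 0.41. A further GSTA1 probe gave 0.18, with the opposite sign.

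GSTA2 was measured by 1 probe and varied more than any other of the 10 genes within each diet, with an SD of 0.57 in LN and 0.63 in HN. Its log2 signals were 14.83, 14.54, 14.78 and 13.60 in LN and 13.87, 13.49, 13.74 and 14.91 in HN. The 8 fetuses therefore fell in a high set of L5, L6, L8 and L10 and a low set of L9, L1, L2 and L3, with no fetus between 13.87 and 14.54, and each set drew on both diets. The difference between LN and HN was 0.44 ± 0.36 (SE, n = 4 against 4, limma p = 0.260, adjusted p = 0.859; exact permutation p = 0.429, 2-sided). Without L10 it was 0.74, with an unadjusted limma p of 0.0412, so this single fetus decided on which side of the threshold GSTA2 lay.

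GSTA4 encodes the alpha class enzyme with a preference for 4-hydroxynonenal, an aldehyde formed when membrane lipids are oxidised. Its log2 signals were 11.11, 10.75, 11.05 and 11.16 in LN and 11.67, 11.81, 11.09 and 11.65 in HN. The LN fetuses were tightly placed, 3 of the 4 HN fetuses lay above all of them, and L3 of the HN group lay between L8 and L5. The difference was -0.54 ± 0.18 (SE, n = 4 against 4), with a 95% interval from -0.94 to -0.13. The unadjusted limma p was 0.0154 and the adjusted p 0.760, and the exact permutation test, whose smallest possible p with these group sizes is 0.0286, gave 0.0857.

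The other GSTA4 probe, which was dimmer, gave log2 signals of 8.12, 7.23, 8.26 and 7.62 in LN and 8.36, 8.90, 7.68 and 8.18 in HN. Its difference, -0.47 ± 0.30 (SE), had the same sign and a similar size but a larger spread, and its unadjusted limma p was 0.151. When fetuses were left out in turn, the difference at the brighter probe stayed between -0.69 and -0.45 with an unadjusted limma p of 0.00137 to 0.0449. The lowest of these values came from leaving out L3, after which the groups no longer overlapped.

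The alpha class genes GSTA2, GSTA1, GSTA5, GSTA3 and GSTA4 stand next to each other in the reference gene table (assembly ARS-UCD2.0), with 0 other protein-coding genes between them. Genes of such a cluster are similar in sequence, and whether a probe also binds RNA of a neighbouring gene was not tested. GSTA3, known from steroid-making tissues for its isomerase activity, had log2 signals of 9.0, 8.76, 6.49 and 8.65 in LN and 9.45, 5.45, 6.87 and 7.99 in HN, a range of 4.00 on the log2 scale. The low fetuses were L8, L2 and L3, from both diets, and its other probe had the same 3 fetuses lowest at 5.02, 4.29 and 5.04. The LN minus HN difference of GSTA3 was 0.78 ± 0.86 (SE), smaller than its error. GSTA5 was dim, at 3.45 to 5.07 in LN and 3.66 to 4.88 in HN, with a difference of 0.14 ± 0.40 (SE).

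**Figure D2:**
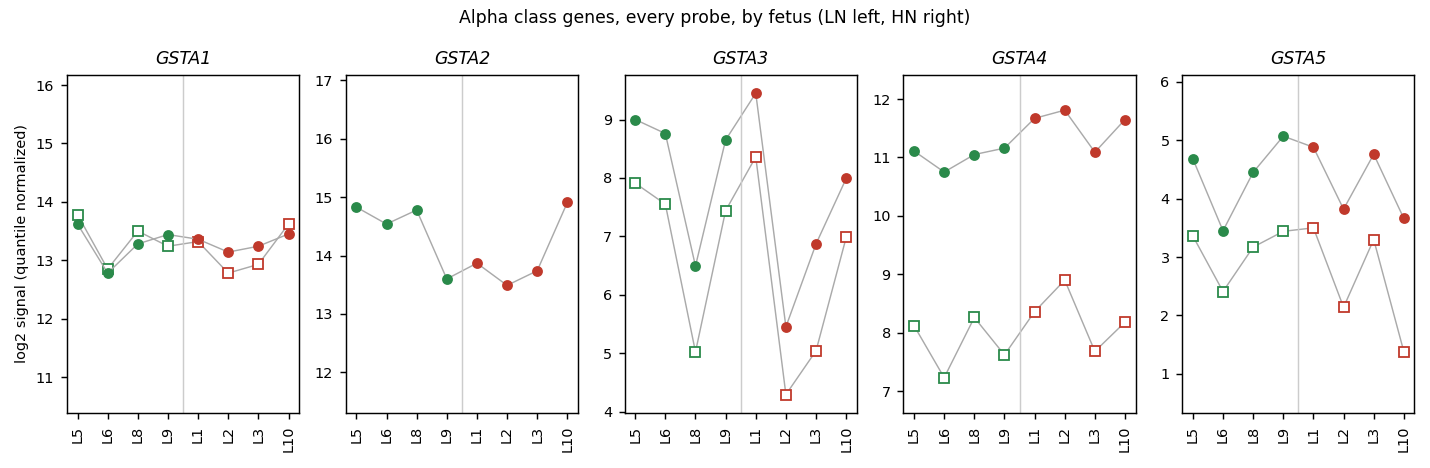
Log2 quantile-normalized signal of the 5 alpha class genes in each fetus, with LN fetuses in green to the left of the line and HN fetuses in red to the right. Filled circles are the brightest detected probe of a gene and open squares the other probe, and each vertical axis spans the same log2 range. GSTA3 spans 4.00 at its brightest probe and 4.07 at the other, with low fetuses in both diets, GSTA2 splits into 4 high and 4 low fetuses, and GSTA4 is the gene with the LN fetuses on the low side.

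The mu class enzymes conjugate epoxides and other electrophiles. GSTM1 is listed in the reference table as LOC327709, with GSTM1 as a synonym, and had 5 detected probes. At the brightest probe the log2 signals were 10.96, 11.47, 11.17 and 11.51 in LN and 11.29, 11.42, 11.55 and 11.76 in HN. L5 and L8 were the lowest fetuses and L10 the highest, while L6 and L9 lay among the HN values. The difference was -0.23 ± 0.17 (SE, n = 4 against 4, limma p = 0.198, exact permutation p = 0.229), with a 95% interval from -0.61 to 0.15.

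The 4 dimmer GSTM1 probes gave larger differences, at -0.42, -0.58, -0.69 and -0.59 from the brightest to the dimmest of them. For the second of these the log2 signals were 7.41, 7.21, 7.24 and 7.25 in LN and 7.53, 7.96, 7.57 and 8.38 in HN. Here every LN fetus lay below every HN fetus (-0.58 ± 0.19 SE, unadjusted limma p = 0.0146, adjusted p = 0.760, exact permutation p = 0.0286, the smallest this design allows). With the mean over the 5 probes in place of the brightest, GSTM1 was 0.50 lower in LN with an unadjusted limma p of 0.0351. The sign for GSTM1 was thus the same at all 5 probes, and its size depended on the probe. Whether any of these probes also binds RNA of another mu class gene was not tested.

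GSTM3, another mu class gene, had log2 signals of 11.82, 12.05, 11.39 and 12.40 in LN and 11.72, 12.06, 11.31 and 12.12 in HN. The lowest fetus was L3 of HN, followed by L8 of LN, and the 2 groups covered nearly the same range. The difference was 0.11 ± 0.25 (SE), and the further probe gave 0.22 ± 0.32 (SE). A second gene that carries GSTM1 among its synonyms, LOC783879, was dim on all arrays, at 3.75 to 4.70 in LN and 3.83 to 4.61 in HN, and its difference was -0.01 ± 0.24 (SE).

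GSTP1, the pi class enzyme, is known in mammals as a form of bile duct cells and of immature or regenerating liver. The detected probes belong to LOC281806, which has GSTP1 as a synonym and stands beside the entry named GSTP1 in the reference table with 0 other protein-coding genes between them. The log2 signals were 13.28, 13.08, 12.92 and 12.70 in LN and 13.01, 12.67, 13.21 and 12.89 in HN. The fetuses of both diets were interleaved, with L5 and L3 highest and L2 and L9 lowest. The difference was 0.05 ± 0.17 (SE, 95% interval from -0.33 to 0.43), and the dimmer probe gave -0.01. Of 6 cholangiocyte markers, the cells of the bile ducts, 5 were detected, with a summed log2 signal of 13.07 to 13.42 in LN and 13.08 to 13.27 in HN. Of the 5, 3 were higher and 2 lower in LN, and KRT7 was higher by 0.67 at an unadjusted limma p of 0.0350, and their part in the GSTP1 values was not tested.

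GSTO1, the omega class enzyme, acts on thiols and on dehydroascorbate more than as a classical conjugating enzyme. Its 1 probe had log2 signals of 12.32, 11.41, 12.11 and 11.74 in LN and 11.40, 11.68, 12.05 and 12.20 in HN. Each diet held fetuses at both ends of the range, and the difference was 0.06 ± 0.24 (SE). GSTO2, its neighbour in the reference table, had no array with a signal well above background.

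GSTZ1, the zeta class enzyme, is maleylacetoacetate isomerase, the last step but one in the breakdown of phenylalanine and tyrosine. Its log2 signals were 13.99, 14.53, 14.79 and 14.21 in LN and 14.91, 14.17, 14.55 and 14.83 in HN. L5 was lowest and L1 highest, while L2 of HN lay beside L9 of LN. The difference was -0.23 ± 0.22 (SE, limma p = 0.323, exact permutation p = 0.343, 95% interval from -0.73 to 0.27). The other probes of the gene gave -0.17 and -0.37, with the same sign.

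GSTK1, the kappa enzyme, was the most even of the 10 genes over the fetuses. Its log2 signals were 13.66, 13.81, 13.80 and 14.01 in LN and 13.77, 13.72, 13.71 and 13.86 in HN. The difference was 0.05 ± 0.11 (SE), and its 95% interval, from -0.21 to 0.31, was the narrowest among the brightest probes of the 10. Its 2 dimmer probes gave -0.06 and -0.05 with wider intervals, from -0.64 to 0.52 and from -0.67 to 0.57.

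MGST1, the abundant membrane-bound enzyme of the endoplasmic reticulum and outer mitochondrial membrane, both conjugates glutathione and reduces lipid peroxides with it. Its 1 probe had log2 signals of 12.62, 12.13, 12.37 and 11.79 in LN and 12.20, 12.53, 11.79 and 12.81 in HN. L10 and L5 were highest and L9 and L3 lowest, so each diet held a fetus at either end. The difference was -0.10 ± 0.25 (SE, 95% interval from -0.68 to 0.47).

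**Figure D3:**
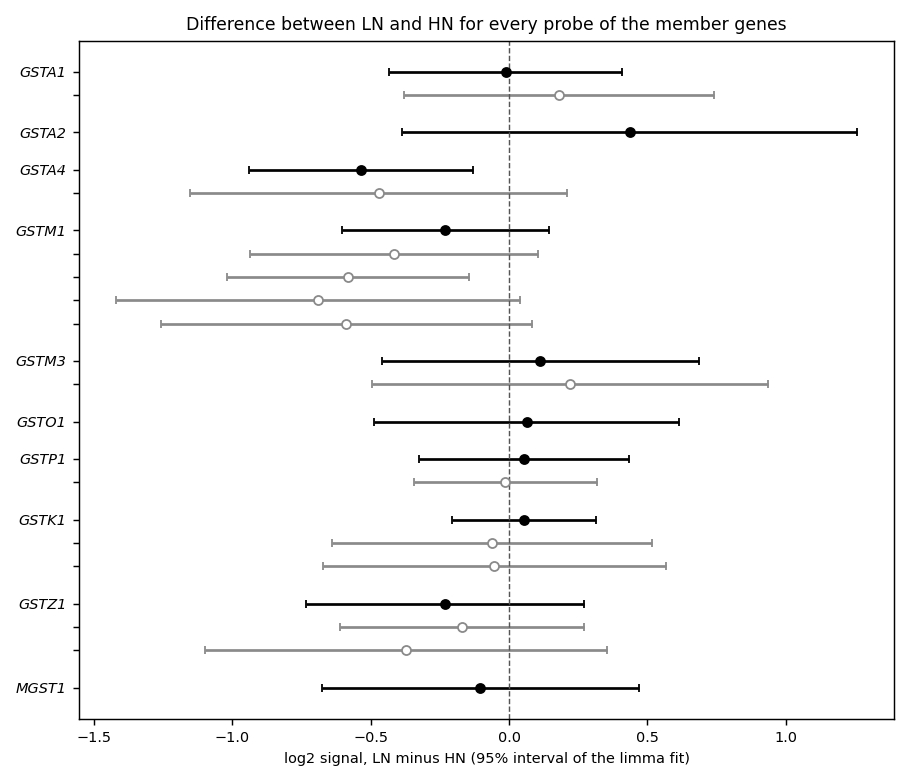
LN minus HN difference in log2 signal, with its 95% interval from the limma fit, for all 22 detected probes of the 10 genes. Filled black points are the brightest detected probe of a gene and open grey points its other probes. Of the 22 probes 15 are lower in LN, 5 of them of GSTM1, and 2 have an interval that leaves out 0 (the brightest GSTA4 probe and 1 dimmer GSTM1 probe), beside 2113 of all 33439 detected probes.

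Fetuses differed from each other across several GST genes without regard to diet. L10, an HN fetus, lay above the 8-fetus mean for 9 of the 10 genes, with GSTP1 the exception, and by 0.33 on the log2 scale in the median. L5, an LN fetus, was the lowest of the 8 for 3 genes (GSTM1, GSTK1 and GSTZ1) and the highest for 3 (GSTA1, GSTO1 and GSTP1). L5 was also the fetus with the highest erythroid markers, at a mean log2 signal of 10.11 against 4.57 to 6.53 in the other 7 fetuses, and their part in these values was not tested.

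For 7 of the 10 genes with more than 1 probe, the probes did not always rank the fetuses alike. The signal of the dimmest probe minus that of the brightest, centred on the 8-fetus mean, was 0.66, -0.98, 0.29 and -0.68 for GSTM1 in LN and 0.08, 0.49, -0.26 and 0.40 in HN. GSTK1 gave 0.47, -0.63, 0.19 and -0.24 in LN and 0.25, 0.38, -0.57 and 0.15 in HN, and GSTZ1 gave 0.36, -0.54, 0.20 and -0.31 in LN and 0.11, 0.50, -0.63 and 0.31 in HN. In these 3 genes L6, L9 and L3 were low at the dim probe relative to the bright one, and the other 5 fetuses were high. GSTA4, the other gene of the 10 with a dim probe over 2 below its brightest, gave 0.25, -0.28, 0.45 and -0.30 in LN and -0.07, 0.33, -0.17 and -0.23 in HN, so L1 and L10 were also negative there. Over 4652 genes whose dimmest probe was at least 2 below the brightest, the median of the same quantity was 0.13, -0.14, 0.11 and -0.07 in LN and 0.06, 0.07, -0.14 and 0.05 in HN. L6, L9 and L3 were the fetuses with a negative median. Where on the transcripts the probes lie was not analysed here, and the cause was not tested.

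**Figure D4:**
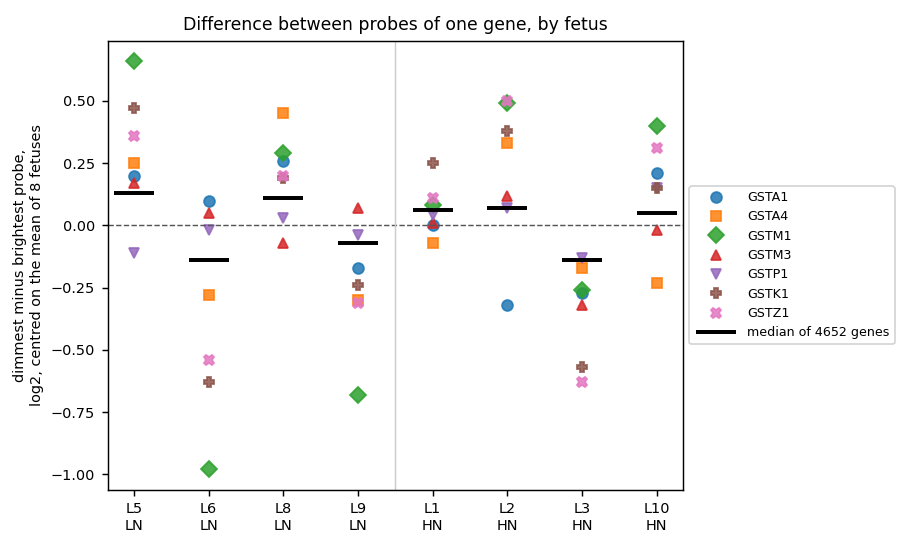
Log2 signal of the dimmest minus the brightest detected probe of a gene, centred on its mean over the 8 fetuses, for the 7 GST genes with more than 1 probe (symbols) and as the median of 4652 genes (black bars). Fetuses L6, L9 and L3 are below 0 for GSTM1, GSTK1 and GSTZ1 as for the median of all such genes, with one value of -0.98 for GSTM1 in L6.

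The genes most like a member over the 8 fetuses were found by the Pearson correlation of log2 signals, described here with no test, since they are the highest of 10859 genes searched and the points share the arrays. For GSTA1 these were CBR1 (r = 0.97, rho = 0.90, n = 8), a carbonyl reductase, FSHB (r = 0.95, rho = 0.93) and ACYP2 (r = 0.92, rho = 0.90). For GSTM1 they were ABHD16B (r = 0.99, rho = 1.00), SNX21 (r = 0.99, rho = 0.98) and ZNF688 (r = 0.98, rho = 0.98). For GSTP1 they were SMS, the spermine synthase (r = 0.98, rho = 0.98), LOC510860 (r = 0.97, rho = 0.95) and RGS10 (r = 0.97, rho = 0.93). For MGST1 they were SH3BGRL (r = 0.96, rho = 0.95), SC5D, an enzyme of cholesterol synthesis (r = 0.96, rho = 0.98), and SFRP1 (r = 0.96, rho = 1.00).

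Beside the 10 genes, 13 other genes of the GST families or of the related membrane enzymes were detected, of which 8 were higher and 5 lower in LN. With limma, 1 of the 13 was higher in LN at an unadjusted p of at most 0.05 (3.30% of all detected genes) and 0 were lower (2.75% of all detected genes). This was PTGES, a membrane enzyme that uses glutathione to make prostaglandin E, with log2 signals of 10.74, 11.29, 11.08 and 11.13 in LN and 10.40, 9.70, 9.91 and 11.04 in HN. Only L10 of HN reached the LN range, and the difference was 0.80 ± 0.28 (SE, unadjusted limma p = 0.0195, adjusted p = 0.760, exact permutation p = 0.0571). The 2 dimmer PTGES probes gave 0.82 and 0.52.

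ALOX5AP, a helper of leukotriene synthesis in myeloid cells, had a log2 difference of 0.46 ± 0.25 (SE). The granulocyte markers were also on the higher side in LN, and so were the 3 detected of 4 mast cell markers, with a summed log2 signal of 8.89 to 10.67 in LN and 8.69 to 9.78 in HN. L10, the HN fetus with the highest PTGES, had the lowest mean log2 signal of granulocyte markers (8.36), followed by L1 (8.41). ALOX5AP was lowest in these same fetuses, at 5.73 in L10 and 5.97 in L1. The part of these cells in the PTGES and ALOX5AP values was not tested. LTC4S, the leukotriene C4 synthase, had a difference of -0.38 ± 0.40 (SE), with L10 at 11.96 and the other 7 fetuses between 9.92 and 10.65. The theta class gene GSTT2 had log2 signals of 11.26, 12.05, 11.87 and 11.54 in LN and 12.02, 11.92, 12.07 and 12.31 in HN (-0.40 ± 0.19 SE, limma p = 0.0624, exact permutation p = 0.0857). GSTT1, its neighbour, was even over the fetuses, at -0.10 ± 0.10 (SE, limma p = 0.351, exact permutation p = 0.0571). The other GSTT1 probes gave -0.09, -0.24 and -0.17, with the same sign, and GSTT4 was at 0.02 ± 0.40 (SE). MGST2 (0.01), MGST3 (-0.01), PTGES2 (0.05) and GSTCD (0.25) were close to 0 or to the size of their standard error, and GSTM2 and HPGDS, with 0 matched probes, were not analysed here.

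**Figure D5:**
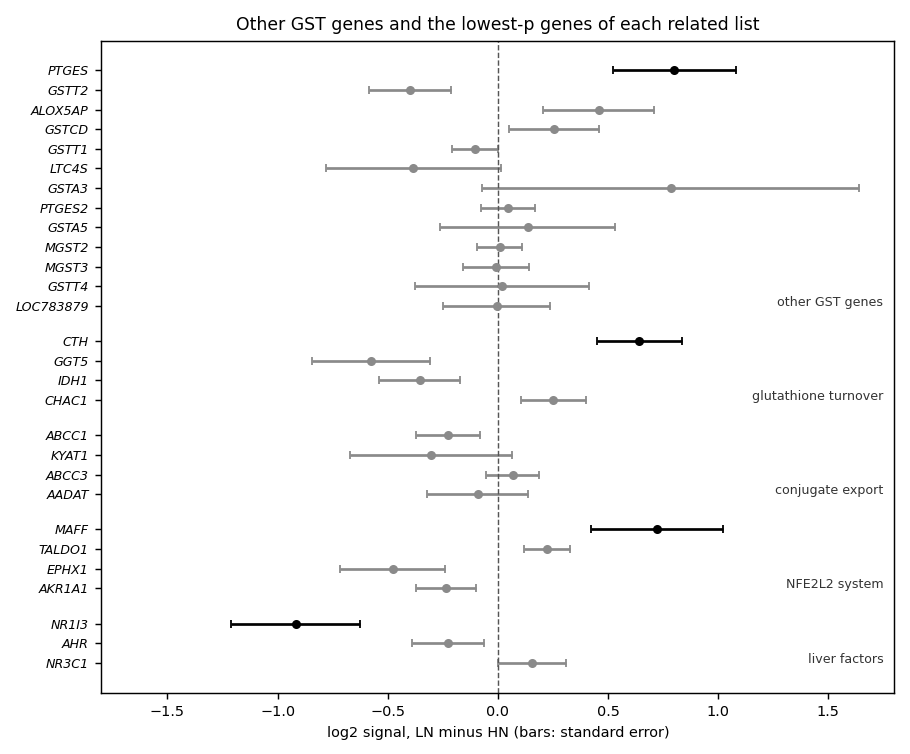
LN minus HN difference in log2 signal with its standard error for the 13 other detected GST family genes and for genes with the lowest limma p in each of 4 related lists, 4 genes a list and 3 for the liver factors. Black points have an unadjusted limma p of at most 0.05: PTGES, CTH and MAFF on the higher side in LN, and NR1I3 on the lower side.

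Glutathione itself is made from cysteine, glutamate and glycine, and is recycled by reduction and broken down outside the cell. Of 33 genes of its synthesis, recycling and turnover 29 were detected, with 12 higher and 17 lower in LN and a median log2 difference of -0.02. At an unadjusted limma p of at most 0.05, 1 was higher and 0 were lower, beside 3.30% and 2.75% of all detected genes. By overlap, 1 gene lay without overlap in each direction, beside 2.59% higher and 1.56% lower. CTH, the cystathionine gamma-lyase that releases cysteine, had log2 signals of 8.61, 8.44, 8.37 and 8.23 in LN and 8.16, 7.79, 7.86 and 7.26 in HN. Every LN fetus lay above every HN fetus (0.64 ± 0.19 SE, unadjusted limma p = 0.00917, adjusted p = 0.760, exact permutation p = 0.0286). GPX4, the peroxidase for lipid peroxides, was the 1 gene of the list that was lower in LN with no overlap between groups, by a difference of -0.13 ± 0.10 (SE). GGT5, which cleaves glutathione conjugates outside the cell, was at -0.58 ± 0.27 (SE), IDH1, a source of NADPH, at -0.36 ± 0.18 (SE), and CHAC1, which degrades glutathione, at 0.25 ± 0.15 (SE).

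Conjugates leave the cell through ABC transporters and are trimmed to mercapturates. The list for this step held 14 names, of which CCBL1 and KYAT1 are the same gene, and 7 genes were detected, with 1 higher and 6 lower in LN, a median log2 difference of -0.08, and 0 at an unadjusted limma p of at most 0.05 in either direction, beside 3.30% higher and 2.75% lower among all detected genes. The 4 with the lowest p were ABCC1, an exporter of glutathione conjugates (-0.22 ± 0.14 SE), KYAT1 (-0.30 ± 0.37 SE), ABCC3 (0.07 ± 0.12 SE) and AADAT (-0.09 ± 0.23 SE).

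NFE2L2 is the factor that switches on many GST and glutathione genes under oxidative or electrophilic stress. Of 23 genes of its system and its targets 21 were detected, with 16 higher and 5 lower in LN and a median log2 difference of 0.07, and with 1 higher and 0 lower at an unadjusted limma p of at most 0.05, beside 3.30% and 2.75% of all detected genes. The 1 gene was MAFF, a small MAF partner of such factors, with log2 signals of 8.57, 9.69, 9.84 and 9.45 in LN and 9.20, 8.67, 8.38 and 8.40 in HN (0.72 ± 0.30 SE, unadjusted limma p = 0.0392, adjusted p = 0.785, exact permutation p = 0.0857). Its groups overlapped through L5. TALDO1, of the pentose phosphate pathway, was the 1 gene of the list whose groups did not overlap (2.59% of all detected genes in this direction), at 12.69 to 12.94 in LN and 12.51 to 12.61 in HN (0.22 ± 0.11 SE, unadjusted limma p = 0.0656, exact permutation p = 0.0286). EPHX1, the microsomal epoxide hydrolase, was at -0.48 ± 0.24 (SE) and AKR1A1, an aldehyde reductase, at -0.24 ± 0.14 (SE).

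Of 11 factors known to drive GST genes in liver 10 were detected, with 3 higher and 7 lower in LN and a median log2 difference of -0.05. At an unadjusted limma p of at most 0.05, 1 was lower and 0 were higher, beside 2.75% and 3.30% of all detected genes. NR1I3, the constitutive androstane receptor that induces drug-metabolising enzymes, had log2 signals of 7.15, 6.5, 7.34 and 7.84 in LN and 8.05, 7.72, 8.11 and 8.63 in HN. L9 of LN lay above L2 of HN, and the other fetuses were separated by diet (-0.92 ± 0.29 SE, unadjusted limma p = 0.0124, adjusted p = 0.760, exact permutation p = 0.0571). AHR, the receptor for aromatic compounds, was at -0.23 ± 0.16 (SE) and NR3C1, the glucocorticoid receptor, at 0.15 ± 0.16 (SE).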

How the data were processed

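Cy3-labelled fetal liver RNA was measured on 1-colour Agilent bovine arrays (4 LN, 4 HN). The authors deposited scanner files whose processed intensity is background-subtracted by Agilent Feature Extraction 11.0.1.1 (per the submitters' processing notes), with no normalization between arrays, and a table of log2 values for 31068 probes. Its probes were those that all 8 arrays marked as well above background. Quantile normalization, the method named by the study, gave its values to a median difference of 2.7e-07.

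Control spots and spots marked as outliers were left out, which removed 16 probes. Spots of a probe were averaged as log2 intensity, and quantile normalization was run over 43637 probes. A log2 difference of 1 is a doubling of signal. Probes were named through their accession in the RefSeq gene table (assembly ARS-UCD2.0), which matched 26740 probes. The array was designed on another build, so no coordinates are given, and probe sequences were not used here. For each gene the brightest detected probe, by mean log2 signal, was used. Signals of different probes are not compared as levels.

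Differences between LN and HN were tested in R 4.3.3 using limma 3.58.1, 2-sided, with eBayes after lmFit and with p-values adjusted by Benjamini-Hochberg over 33439 detected probes, and, for single genes, with a 2-sided exact permutation test over the fetuses. The fit was checked on simulated data. The number of arrays limits the precision, and p-values measure the spread between these fetuses. The members and gene lists were chosen with earlier results of these data known. All members and other detected GST genes are named, with the 4 genes of lowest limma p in each related list, of which the value of 1 is not reported here though the counts include it, and the 3 genes most correlated with GSTA1, GSTM1, GSTP1 and MGST1. GPX4 was named after its values were seen. Marker lists not given in the report (macrophage, endothelial, stellate) had 6 of 7, 6 of 6 and 7 of 7 genes detected, with 1, 5 and 4 higher in LN.

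The alternatives were scaling to the 75th percentile, normexp with an offset of 50, the deposited log2 table, no filter on dim probes, only the probes that pass on all 8 arrays, trend and robust settings in eBayes, array position on the slide as a block, the mean over probes, the Student test per probe (0 probes at an adjusted p of 0.05 and 2285 at an unadjusted one) and each fetus left out. The dimmest detected probe was added after seeing the data.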

Additional observations from a re-analysis of the deposited data

Results flagged for a closer look

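In 46 groups of 4 fetuses, taken over the GST genes described, a value was marked when its gap to the nearest fetus exceeded Dixon's critical share of the range of its group, which chance gives in about 1 in 20 groups. GSTA3 in LN fetus L8 was marked, at a log2 signal of 6.49 with the nearest LN fetus at 8.65 (gap 0.862 of the range), and 2 HN fetuses had values as low or nearly so. LTC4S in HN fetus L10 was marked, at 11.96 with the nearest HN fetus at 10.34 (gap 0.900 of the range). The causes were not tested.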

How the results depend on the processing

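GSTA4, GSTM1 and GSTZ1 were lower and GSTA2 was higher in LN under all 18 alternatives run for each gene. Several of these say nothing further about the sign. The filters on dim probes, the eBayes settings, the position block and the Student test left each difference unchanged. So did the mean over probes and the dimmest probe for GSTA2, which has 1 probe, and the deposited table is itself quantile normalized. Over fetuses left out, GSTA4 ranged from -0.690 to -0.446, GSTM1 from -0.308 to -0.124 (without LN fetus L5), GSTZ1 from -0.379 (without HN fetus L2) to -0.102 (without L5), and GSTA2 from 0.266 (without L2) to 0.739 (without HN fetus L10). For GSTA4 the unadjusted limma p rose above 0.05 under 2 of the 18. It was 0.0540 (-0.50) with the mean over probes and 0.151 (-0.47) with the dimmest probe. The number of the 10 genes at an unadjusted p of at most 0.05 was 1 to 2 when fetuses were left out in turn, with 2 without HN fetus L10, where GSTA2 joined GSTA4, and it was 0 with the dimmest probe. The number without overlap between groups was 0 to 1, with 1 without HN fetus L3 (GSTA4). The median difference over the 10 genes ranged from -0.0901 to 0.0454 when fetuses were left out and from -0.0340 to 0.0292 under the others. For scale, the fetuses of the same diet had an SD of 0.173 in their median log2 signal over the 10 genes. That SD is not a spread of the median difference itself. The other 6 genes changed sign under some alternatives. Over fetuses left out, GSTA1 ranged from -0.125 to 0.154, GSTM3 from -0.0533 to 0.288, GSTO1 from -0.0802 to 0.225, GSTP1 from -0.0414 to 0.152, GSTK1 from -0.0107 to 0.105 and MGST1 from -0.286 to 0.0534. With the mean over probes GSTA1 was at 0.0838 and GSTK1 at -0.0214, and with the dimmest probe GSTA1 was at 0.181, GSTP1 at -0.0140 and GSTK1 at -0.0539. The cause was not tested. No scaling moved the median of all genes beyond the range from -0.0231 to 0.00987. With 4 fetuses per group, the 95% intervals given beside the differences set their precision.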
